A study of Sus scrofa with 15 samples.

Results

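The -10vs-14 time comparison set mammary tissue taken 10 d prepartum against tissue taken 14 d prepartum, the earliest interval of the series. It used 6 of the 15 libraries, 3 labelled 10 d and 3 labelled 14 d before parturition, and all 25322 genes of the count tables. The tissue was mammary gland biopsied repeatedly from the same 3 second-parity crossbred sows (Danish Landrace × Yorkshire), which the study took for their high colostrum yield. Each sow received a different diet of fiber and fat source, so an effect of diet could not be separated from the sow. The methods place the assignment to diets in late gestation, close to the interval compared, so a start of the diets and the time point cannot be told apart either, and no untreated or unbiopsied animal was among the samples. Each sow was anesthetised for a biopsy and given Banamine after it, and the 10 d tissue followed the 14 d biopsy of the same sow. An after-effect of that biopsy or of the drugs cannot be told apart from the time point. The other 9 libraries, of the same sows at 6 d and 2 d prepartum and 1 d postpartum, entered the estimate of the spread, the choice of some of the genes followed here and the description of what came later. Total counts of the 6 libraries lay between 16862026 and 19292238.

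In late pregnancy the alveolar epithelium of the gland matures from a growing to a secreting tissue. Casein genes are switched on first and at low level, the whey protein LALBA, which with a galactosyltransferase makes lactose, follows closer to birth, and the fat globule proteins BTN1A1 and XDH are needed when lipid droplets are secreted. In the same weeks antibody-secreting cells settle in the gland and the polymeric immunoglobulin receptor PIGR carries their dimeric antibody into colostrum, from which the piglet takes its first antibodies. The paper names IgG as the main immunoglobulin of sow colostrum, and reports that most colostral immunoglobulin appears to come from serum.

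The differences followed here were of 3 kinds. Caseins and a few other milk genes were higher at 10 d in every sow, several genes of antibody-secreting cells and other leukocytes were higher, and a small set of genes, lipid droplet and cartilage-type collagen genes among them, was lower. Genes named for the size of their change were chosen among those that moved the same way in every sow. For them, agreement of the sows was fixed by the choice and is not a separate result. None of these single genes passed the threshold of an adjusted p of 0.05 or less. Levels are given as CPM, counts scaled to the size of the library and its TMM factor. Among 13503 genes that reached 1 CPM in 3 or more libraries, edgeR called 0 (0.0%) and limma-voom with sow as a random effect also 0, and the smallest adjusted p of edgeR was 0.177, in 2 genes. Of these genes, 523 genes (3.87%) had a nominal p, that is one before adjustment, of up to 0.05, 316 higher (2.34%) and 207 lower (1.53%) at 10 d. Where no gene changes, a share of about 0.05 is expected at that p. The reported count did not exceed it, but the count of 1004 genes in the edgeR fit of the 6 libraries alone did. The reading of this count therefore depends on the fit. With total counts in place of TMM the count was 253 genes, 127 of them higher, and with the RNA integrity number as a covariate 282, 141 of them higher. DESeq2 called 25 genes (0.185%), and edgeR on the 6 libraries alone called 17 (0.126%), with 5 genes in both sets, 20.0% of the first and 29.4% of the second. Values below are therefore measurements with their uncertainty and not a list of differentially expressed genes (DEG). The median 95% interval of a log2 fold change was 0.758 wide, and for 11782 genes (87.3%) the interval lay within 1 log2 unit of no change on both sides. All 3 sows were higher at 10 d for 2045 genes (15.1%) and lower for 1904 (14.1%), and the 3 libraries of 10 d lay above all 3 of 14 d for 682 genes (5.05%) and below them for 602 (4.46%). Where nothing changes and libraries are unrelated, 3 against 3 separate one way or the other at a share of 0.1. The shares without overlap were near that level, so a lack of overlap in a single gene is weak evidence.

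**Figure D1:**
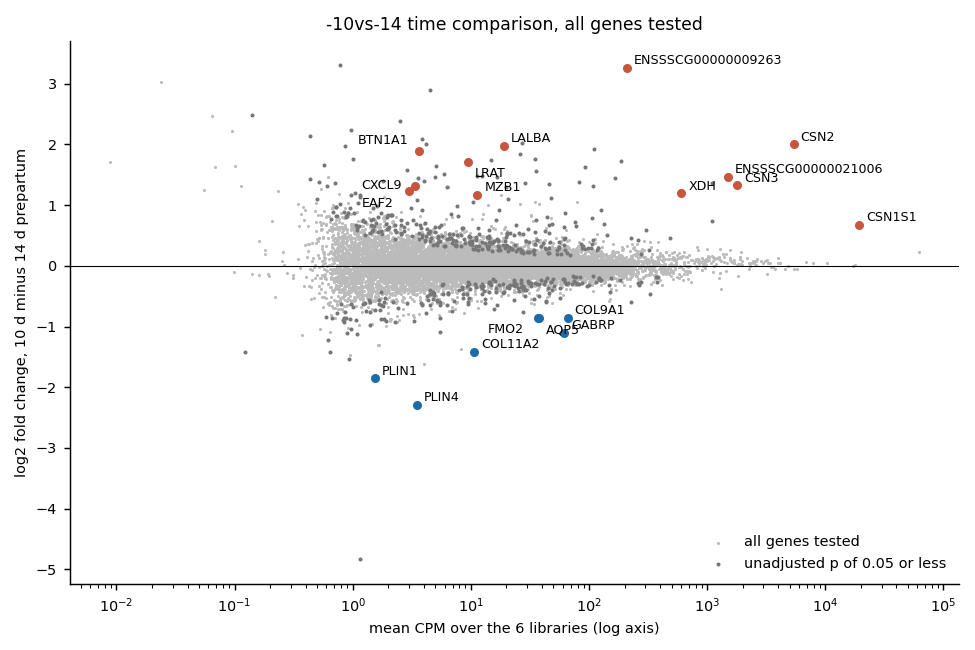
Log2 fold change (10 d minus 14 d prepartum, vertical axis) of each of the 13503 genes tested against its mean CPM over the 6 libraries (horizontal log axis). Dark points have a nominal p of up to 0.05, and red and blue points are named genes that were higher or lower. Casein genes stand out at high CPM, with CSN2 at 2.01, while most genes of that abundance lie near 0.

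The major casein CSN1S1 was already abundant at 14 d. Per kilobase of exon it was the gene of rank 2 of those tested at 14 d, at 13210 CPM per kb, and kept rank 2 at 10 d. CSN1S1 stood at 15818, 15458 and 13189 CPM in sows 1, 2 and 3 at 14 d and 23802, 29968 and 18229 CPM at 10 d. The 3 libraries of 10 d were all above those of 14 d, and the log2 fold change was 0.67 ± 0.32 (SE, 95% interval -0.02 to 1.37, edgeR adjusted p = 0.999). The beta-casein gene CSN2 had the largest increase among the 12 named by rule. CSN2 stood at 3178, 2183 and 1070 CPM in sows 1, 2 and 3 at 14 d and 6597, 15462 and 3824 CPM at 10 d. All libraries of 10 d were again above those of 14 d, with the largest value in sow 2, and the log2 fold change was 2.01 ± 0.64 (SE, 95% interval 0.62 to 3.39, edgeR adjusted p = 0.999). Its rank per kilobase went from 45 to 9. CSN3 encodes kappa-casein, which stabilises the casein micelle. It measured 890.4, 1203 and 799 CPM in sows 1, 2 and 3 at 14 d and 2206, 4140 and 1498 CPM at 10 d, without overlap of the groups, and its log2 fold change was 1.33 ± 0.39 (SE, 95% interval 0.49 to 2.17, edgeR adjusted p = 0.999). For CSN3 the adjusted p was 0.0305 in the 6-library edgeR fit, 0.142 with DESeq2 and 0.9998 with limma-voom.

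ENSSSCG00000009263, an unnamed gene followed for its later increase, had the largest log2 fold change among the genes followed by rule. Unnamed increases were not chosen by size. Outside the rule, ENSSSCG00000003754 was at 3.28 with DESeq2 (adjusted p = 0.0391) and 3.37 in the 6-library edgeR fit (adjusted p = 0.0350). ENSSSCG00000016752 was at 1.49 (adjusted p = 2.52e-04) and 1.47 (adjusted p = 0.0305) in these fits. ENSSSCG00000030198 was at -4.39 in the 6-library fit (adjusted p = 0.0448). None of these genes outside the rule was called by limma-voom. ENSSSCG00000009263 lies on chromosome 8 at 148310617 to 148326957 of Sscrofa10.2, between CSN2 and CSN3. In the later assembly Sscrofa11.1, RefSeq places 6 genes between CSN2 and CSN3, STATH, CSN1S2, PRR27 and ODAM among them, and no name was assigned from this position. ENSSSCG00000009263 stood at 58.8, 21 and 9.36 CPM in sows 1, 2 and 3 at 14 d and 809, 320.1 and 36.5 CPM at 10 d. Each sow was higher at 10 d than at 14 d, but the groups overlapped, because sow 3 at 10 d was lower than sow 1 at 14 d. The log2 fold change was 3.26 ± 0.84 (SE, 95% interval 1.44 to 5.08, edgeR adjusted p = 0.858). For this gene the adjusted p was 0.0305 in the 6-library edgeR fit, 0.0708 with DESeq2 and 0.9998 with limma-voom. ENSSSCG00000016731, on chromosome 18, was near the limit of counting at 14 d. It stood at 1.05, 0.713 and 0.291 CPM in sows 1, 2 and 3 at 14 d and 10.23, 2.45 and 0.387 CPM at 10 d, with a log2 fold change of 2.39 ± 0.95 (SE, 95% interval 0.31 to 4.47, edgeR adjusted p = 0.999).

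LALBA was low at both times and varied widely between sows. It measured 15.1, 6.41 and 1.12 CPM in sows 1, 2 and 3 at 14 d and 34.8, 53.4 and 3.2 CPM at 10 d. Sow 3 at 10 d remained below sows 1 and 2 at 14 d, so the groups overlapped, and the log2 fold change was 1.98 ± 0.90 (SE, 95% interval 0.01 to 3.94, edgeR adjusted p = 0.999). BTN1A1, a coat protein of the milk fat globule, stood at 3.3, 1.22 and 0.194 CPM in sows 1, 2 and 3 at 14 d and 7.53, 8.56 and 1.11 CPM at 10 d, also with overlap, and had a log2 fold change of 1.89 ± 0.74 (SE, 95% interval 0.27 to 3.51, edgeR adjusted p = 0.999). XDH, the xanthine dehydrogenase that binds butyrophilin at the globule surface, measured 429.7, 412 and 199 CPM in sows 1, 2 and 3 at 14 d and 514, 1672 and 404 CPM at 10 d. Most of its difference came from sow 2, and the log2 fold change was 1.20 ± 0.42 (SE, 95% interval 0.28 to 2.11, edgeR adjusted p = 0.999). The lipopolysaccharide-binding protein gene LBP and PIGR did not overlap between the groups. LBP stood at 8.98, 11.9 and 7.66 CPM in sows 1, 2 and 3 at 14 d and 18.3, 21.2 and 16.6 CPM at 10 d, and its log2 fold change was 1.01 ± 0.49 (SE, 95% interval -0.07 to 2.08, edgeR adjusted p = 0.999). PIGR stood at 25.7, 27.2 and 17.9 CPM in sows 1, 2 and 3 at 14 d and 40.3, 50.8 and 33.3 CPM at 10 d, and its log2 fold change was 0.83 ± 0.42 (SE, 95% interval -0.08 to 1.74, edgeR adjusted p = 0.999).

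Of 32 milk protein and milk fat globule genes listed, only 21 had an identifier, and these were tested. Of the 21, 5 were higher at a nominal p of up to 0.05 and 0 lower, where 2.34% of all genes were higher and 1.53% lower. The 5 were CSN3, CSN2, XDH, BTN1A1 and LALBA. Of the 21, 15 had a log2 fold change above 0, and the median was 0.36 (0.24 to 0.63 with 1 library or sow left out, 0.62 with the RNA integrity number as covariate), where the median of all 13503 genes was 0.004 and 6896 were above 0. The other 6 of the 21 were below 0, down to -0.74. LTF, the lactoferrin gene, had a log2 fold change of 0.14 and MFGE8 one of 0.27. Counts on CSN1S1, CSN2, CSN3, LALBA and ENSSSCG00000009263 together were 2.30%, 2.33% and 1.84% of all counts in sows 1, 2 and 3 at 14 d and 3.86%, 5.43% and 2.86% at 10 d. The means were 2.16% ± 0.275 and 4.05% ± 1.30 (SD, n = 3 each), and each sow was higher at 10 d. An exact permutation test of this sum gave p = 0.1. That is the smallest value it can give with 3 libraries against 3, so it cannot decide whether the sum changed. The test also took the libraries as unrelated, without the pairing by sow, and the genes summed were chosen with earlier results of these data known.

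**Figure D2:**
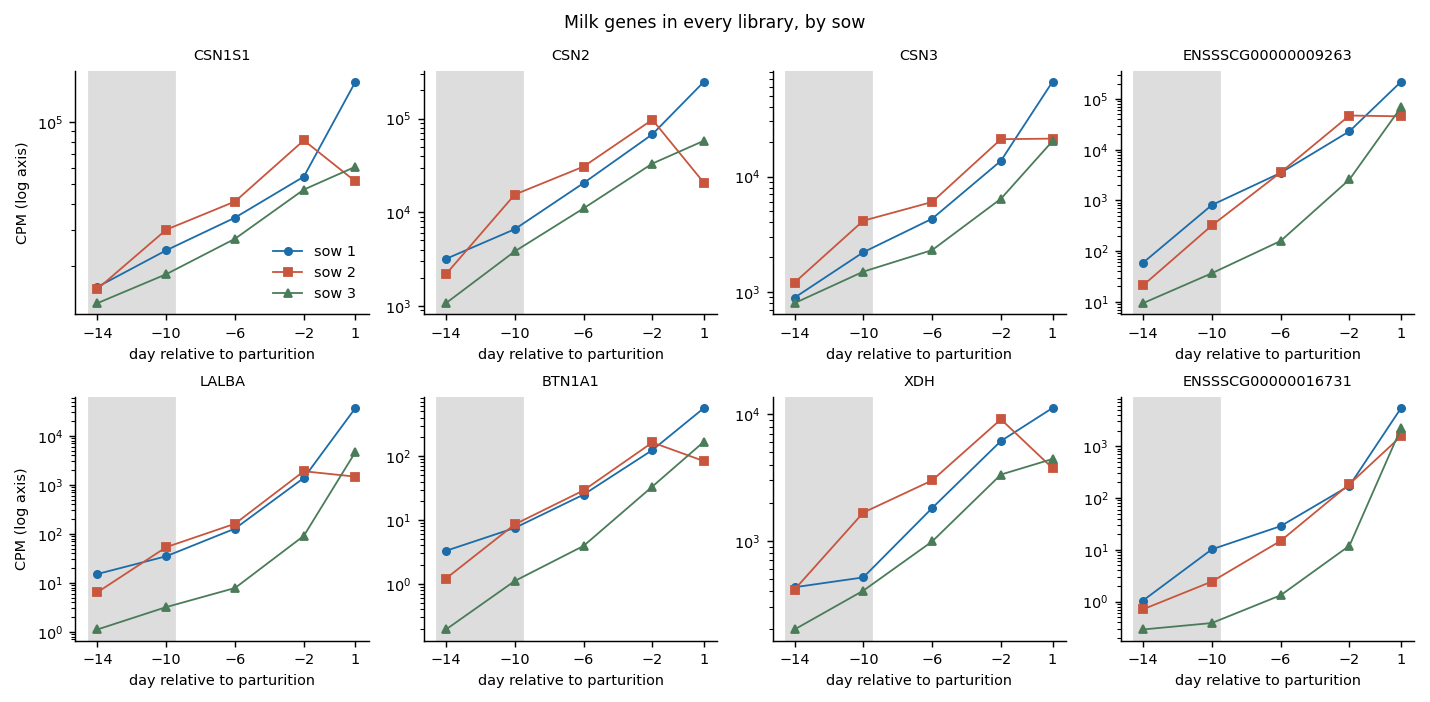
CPM (vertical log axis) of 8 genes against the day relative to parturition, 1 line per sow, with the -10vs-14 interval shaded. They are named milk genes and the unnamed ENSSSCG00000009263 and ENSSSCG00000016731, followed for their later increase. Each of the 8 genes is higher at 10 d than at 14 d in all 3 sows, and CSN1S1 starts from 13189 CPM or more where ENSSSCG00000016731 starts from 1.05 CPM or less. For genes named by the size of their change, the agreement of the sows was fixed by the rule of choice.

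The same 14 d libraries served as baseline for the later time points, so the following comparisons share them. Against 14 d, CSN2 had a log2 fold change of 3.31 at 6 d (adjusted p = 0.0561), 4.97 at 2 d (adjusted p = 0.0023) and 5.66 at 1 d postpartum (adjusted p = 1.42e-04). ENSSSCG00000009263 passed the threshold from 6 d on, with a log2 fold change of 5.91 and an adjusted p of 0.0239 there. Of the 21 milk genes tested, 0 were called higher at 10 d, 1 at 6 d, 11 at 2 d and 17 at 1 d postpartum, and 2 were called lower at 2 d and 1 at 1 d postpartum. The gene called at 6 d was XDH (adjusted p = 0.0354). Over all genes the share called in either direction was 0.467% at 6 d, 9.41% at 2 d and 39.1% at 1 d postpartum.

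A list chosen without the 6 libraries, but on the same 3 sows, gave a view of genes that rose later. Only 15 of its genes had a name, and whether the list marks milk onset was not tested. The list held the 30 genes with the largest log2 fold change from 6 d prepartum to 1 d postpartum in the other 9 libraries, where 21.7% of genes were called over that interval. Of these, 23 were above 0 in the -10vs-14 comparison, with a median of 0.55 and a range from -1.43 to 3.30, 7 were higher and 1 lower at a nominal p of up to 0.05, and 13 were higher in all 3 sows. The 30 genes with the largest decrease over the later interval had 8 above 0, a median of -0.19, 0 higher and 3 lower at that p. The 3 were COL9A1, APCDD1L and TDRD1.

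The second group was of leukocyte genes, with MZB1, SLAMF7 and EAF2 of a list of antibody-secreting cell genes that was drawn up after the data were seen. MZB1, a chaperone of antibody assembly in B and plasma cells, stood at 8.71, 5.45 and 5.92 CPM in sows 1, 2 and 3 at 14 d and 26.3, 10.1 and 11.6 CPM at 10 d. The groups did not overlap, sow 1 was highest, and the log2 fold change was 1.18 ± 0.24 (SE, 95% interval 0.66 to 1.69, edgeR adjusted p = 0.398). DESeq2 gave MZB1 an adjusted p of 0.0055, while limma-voom did not call it. SLAMF7, a surface receptor of plasma cells and other lymphocytes, measured 4.63, 4.36 and 6.11 CPM in sows 1, 2 and 3 at 14 d and 14.7, 7.45 and 8.52 CPM at 10 d, with a log2 fold change of 0.98 ± 0.20 (SE, 95% interval 0.55 to 1.42, edgeR adjusted p = 0.398). EAF2, a transcription elongation factor, stood at 1.92, 1.13 and 1.99 CPM in sows 1, 2 and 3 at 14 d and 7.39, 2.5 and 2.9 CPM at 10 d, again without overlap, and had a log2 fold change of 1.23 ± 0.28 (SE, 95% interval 0.61 to 1.85, edgeR adjusted p = 0.611).

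Short unnamed genes in 2 chromosome intervals were higher as blocks. They were chosen after their values were seen and are given without a test of the block. On chromosome 14, between SLC5A4 and GNAZ, 11 of 16 unnamed genes were tested, with exon lengths of 353 to 454 bp. All 11 had a log2 fold change above 0, from 0.79 to 2.90 with a median of 1.56, and 9 had a nominal p of up to 0.05. On chromosome 3, between CNNM4 and EIF2AK3, 9 of 18 were tested, all 9 were above 0 at 1.11 to 1.64 with a median of 1.40, and all 9 had a nominal p of up to 0.05. In Sscrofa11.1, RefSeq lists 4 V segments and 2 C regions of immunoglobulin type among 18 genes of the first interval and 6 V segments among 16 of the second. Near-identical copies share reads in such clusters, so single genes of a block are uncertain. ENSSSCG00000030775 on chromosome 14 had the smallest p of all genes tested. It stood at 11.3, 5.53 and 16.2 CPM in sows 1, 2 and 3 at 14 d and 67.7, 20.3 and 35.9 CPM at 10 d, without overlap, and its log2 fold change was 1.85 ± 0.27 (SE, 95% interval 1.26 to 2.44, edgeR adjusted p = 0.177). Summed over the 11 genes of chromosome 14, the level was 233, 212 and 309 CPM at 14 d and 1392, 403 and 566 CPM at 10 d in sows 1, 2 and 3. Over the 9 genes of chromosome 3 it was 104, 40.3 and 207 CPM at 14 d and 480, 99.7 and 267 CPM at 10 d. Every sow was higher at 10 d in both sums, and sow 1 had the largest difference.

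Both of the following unnamed genes also differed most in sow 1. ENSSSCG00000008939 lies on chromosome 8 between ENAM and UTP3, where RefSeq has JCHAIN, the joining chain of polymeric antibodies, in Sscrofa11.1. It stood at 526, 359 and 766 CPM in sows 1, 2 and 3 at 14 d and 3059, 778 and 1081 CPM at 10 d, and its log2 fold change was 1.36 ± 0.31 (SE, 95% interval 0.69 to 2.03, edgeR adjusted p = 0.586). ENSSSCG00000021006, on an unplaced scaffold, measured 702, 362 and 1176 CPM in sows 1, 2 and 3 at 14 d and 4103, 1017 and 1655 CPM at 10 d, with a log2 fold change of 1.46 ± 0.31 (SE, 95% interval 0.78 to 2.14, edgeR adjusted p = 0.51). These genes were named after their values were seen. At 6 d the summed level of the chromosome 14 block was 577, 356 and 487 CPM, below its 10 d level in each sow. At 2 d it was 1107, 372 and 571 CPM and at 1 d postpartum 1217, 495 and 1035 CPM, where sows 2 and 3 were above their 10 d level. Against 14 d, 7 of the 11 genes were called higher at 2 d and 8 at 1 d postpartum.

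**Figure D3:**
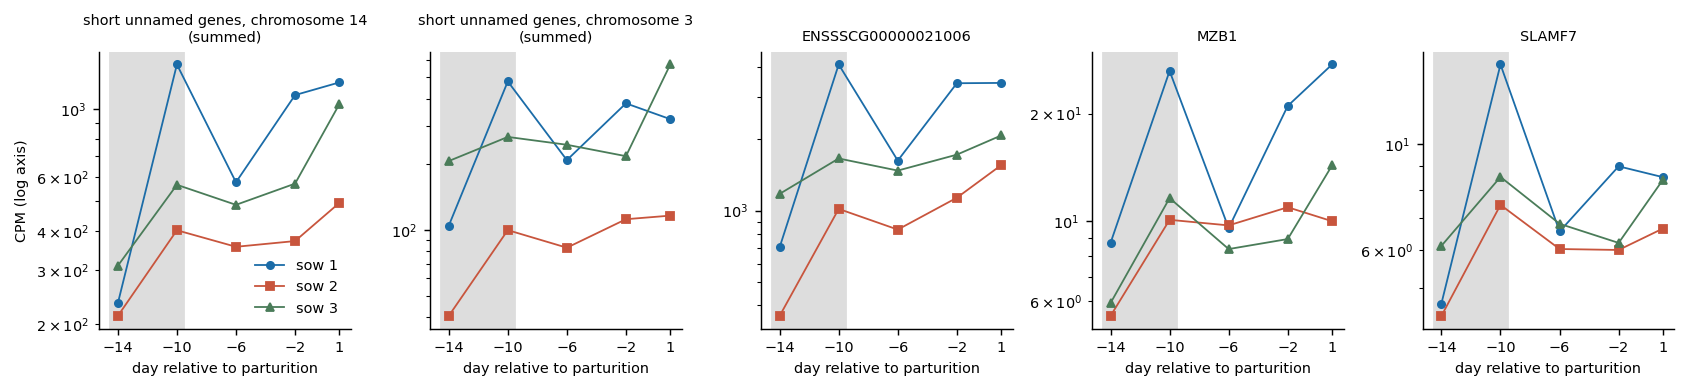
CPM (vertical log axis) of the summed short unnamed genes of chromosomes 14 and 3 and of ENSSSCG00000021006, MZB1 and SLAMF7 against the day relative to parturition, 1 line per sow, with the -10vs-14 interval shaded. All 5 panels show every sow higher at 10 d than at 14 d, with the steepest line in sow 1.

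Markers of leukocytes as a whole were mostly above 0. Of 29 tested, 10 were higher at a nominal p of up to 0.05 and 0 lower, 23 were above 0, and the median log2 fold change was 0.22. The other 6 were below 0, down to -0.63. CD53, a tetraspanin of leukocytes, stood at 17.9, 15.1 and 17.2 CPM in sows 1, 2 and 3 at 14 d and 23.3, 21.2 and 21.9 CPM at 10 d, without overlap, with a log2 fold change of 0.41 ± 0.11 (SE, 95% interval 0.17 to 0.64, edgeR adjusted p = 0.859). HLA-DRA, the MHC class II alpha chain, had a log2 fold change of 0.26 ± 0.08 (SE, 95% interval 0.08 to 0.44, edgeR adjusted p = 0.999). The T cell co-receptor gene CD4 was not on this list of leukocyte markers. It measured 2.93, 5.41 and 4.27 CPM in sows 1, 2 and 3 at 14 d and 4.78, 8.24 and 6.54 CPM at 10 d, with overlap of the groups. The summed level of the 30 markers with an identifier was 948 to 1114 CPM at 14 d and 1125 to 1228 CPM at 10 d. In bulk tissue, more cells of a type and more RNA per cell cannot be told apart. Nor can an after-effect of the 14 d biopsy and its drugs be told apart from the time point. A list of antibody-secreting cell genes, chosen after the data were seen, had 10 of 11 above 0 and a median of 0.72, but its summed level, of which XBP1 takes the largest share, was 679, 693 and 512 CPM at 14 d and 565, 1135 and 580 CPM at 10 d, lower at 10 d in sow 1. Interferon response genes had 20 of 25 above 0, a median of 0.26 (0.11 with the RNA integrity number as covariate) and 1 gene, CXCL9, higher at that p. CXCL9, a chemokine that attracts T cells and is induced by interferon, measured 1.74, 2.26 and 1.79 CPM in sows 1, 2 and 3 at 14 d and 6.4, 4.1 and 3.92 CPM at 10 d, and its log2 fold change was 1.32 ± 0.35 (SE, 95% interval 0.56 to 2.08, edgeR adjusted p = 0.859).

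The third group was lower at 10 d. FMO2, a flavin-containing monooxygenase, had the smallest p among named genes. It stood at 47.8, 69.6 and 28.1 CPM in sows 1, 2 and 3 at 14 d and 23.7, 36.8 and 17.8 CPM at 10 d. Each sow was lower at 10 d, while the ranges overlapped because the sows differed in level, and the log2 fold change was -0.86 ± 0.13 (SE, 95% interval -1.15 to -0.58, edgeR adjusted p = 0.177). FMO2 was called by DESeq2 (adjusted p = 1.46e-05) and by the 6-library fit (adjusted p = 0.0305). It was not called by limma-voom, where the smallest adjusted p over all genes was 0.9998. GABRP, a GABA receptor subunit found in mammary epithelium, measured 74.7, 96.8 and 72.5 CPM in sows 1, 2 and 3 at 14 d and 25.9, 41.9 and 55 CPM at 10 d, without overlap, with a log2 fold change of -1.10 ± 0.39 (SE, 95% interval -1.96 to -0.24, edgeR adjusted p = 0.999). AQP5, a water channel, stood at 16.4, 63.3 and 57.1 CPM in sows 1, 2 and 3 at 14 d and 4.96, 43 and 41.8 CPM at 10 d, and its log2 fold change was -0.85 ± 0.25 (SE, 95% interval -1.39 to -0.32, edgeR adjusted p = 0.999). The collagen genes COL11A2 and COL9A1, best known from cartilage, had log2 fold changes of -1.41 ± 0.35 (SE, 95% interval -2.18 to -0.64, edgeR adjusted p = 0.8) and -0.86 ± 0.20 (SE, 95% interval -1.30 to -0.42, edgeR adjusted p = 0.629). COL9A1 stood at 43.8, 165 and 28.7 CPM in sows 1, 2 and 3 at 14 d and 22.1, 123 and 12.5 CPM at 10 d, with sow 2 far above the others at both times.

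The lipid droplet coat genes of adipocytes were also lower, at low counts. PLIN4 stood at 6.83, 1.55 and 9.12 CPM in sows 1, 2 and 3 at 14 d and 0.225, 0.957 and 2.28 CPM at 10 d, and its log2 fold change was -2.29 ± 0.73 (SE, 95% interval -3.87 to -0.71, edgeR adjusted p = 0.999). PLIN1 measured 4.08, 0.838 and 2.43 CPM in sows 1, 2 and 3 at 14 d and 0.316, 0.532 and 1.07 CPM at 10 d, with a log2 fold change of -1.85 ± 0.48 (SE, 95% interval -2.90 to -0.80, edgeR adjusted p = 0.859). Of 7 adipocyte markers tested, 3 were lower at a nominal p of up to 0.05 (PLIN1, PLIN4 and GPD1), 0 higher, and the median was -0.29. With the RNA integrity number, which was higher at 10 d in every sow, as a covariate, the log2 fold change of PLIN4 was -0.88, that of PLIN1 -0.92 and the median of the list -0.10. Without sow 1 the median was -0.097, and its sow medians were -0.81, -0.13 and -0.40 in sows 1, 2 and 3. The summed level of the 8 adipocyte markers with an identifier, of 14 listed, was 54.3 to 72.8 CPM at 14 d and 44.5 to 50.7 CPM at 10 d, and its part in the result was not tested. The remaining named decreases by rule were ASIC3 (-0.91), PIMREG (-0.77, or -0.39 with the integrity covariate), APCDD1L (-0.76), BAMBI (-0.75), MMP9 (-0.72) and METTL25 (-0.70, all log2 fold changes), and ENSSSCG00000016833 (-0.92) and ENSSSCG00000015239 (-0.86) among genes without a name. The remaining increases were LRAT (1.71), which esterifies retinol, the amino acid transporter SLC6A14 (1.35), ANKRD22 (1.30) and TSPAN2 (1.11).

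**Figure D4:**
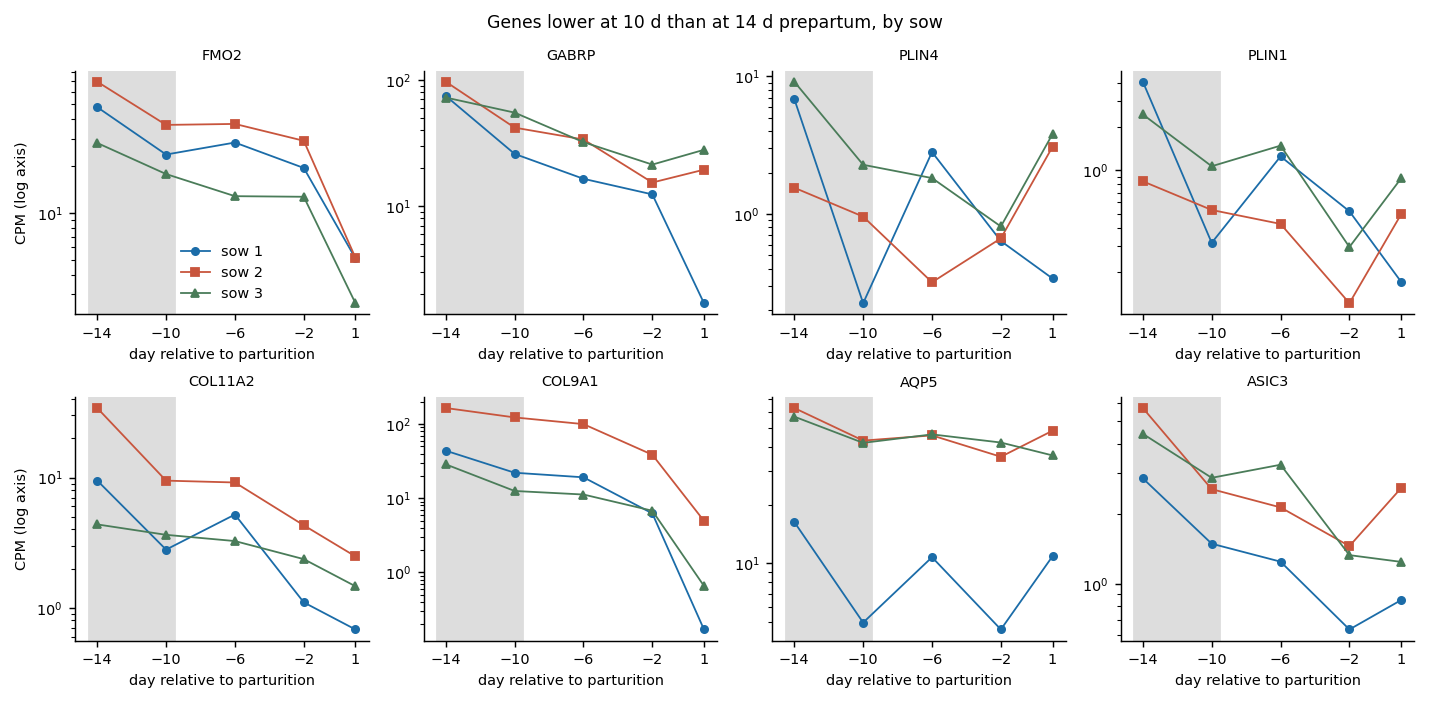
CPM (vertical log axis) of 8 genes that were lower at 10 d against the day relative to parturition, 1 line per sow, with the -10vs-14 interval shaded. All 8 are lower at 10 d in every sow, which the rule of choice fixed for genes named by the size of their decrease. FMO2, GABRP, COL11A2 and COL9A1 are lower at 1 d postpartum than at 10 d in every sow.

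Few genes of the other groups reached that p. Of 70 cell cycle and DNA replication genes tested, 64 were above 0 with a median of 0.22. The sow medians differed, at 0.62, -0.13 and 0.23 in sows 1, 2 and 3, and the median was 0.0092 without sow 1 at 14 d, 0.028 without sow 1 and 0.42 without sow 2. Of the 70, 2, RAD54L (0.49) and FANCI (0.28), had a nominal p of up to 0.05. At 6 d, 11 of the 70 were above 0 against 14 d. Of 65 genes of protein folding and secretory traffic, 56 were above 0 with a median of 0.11, and 1, DERL3 (0.85), a component of endoplasmic reticulum degradation, had a nominal p of up to 0.05. Lipid synthesis had 1 higher, GPAT3 (0.39), and 1 lower, DHCR7 (-0.33), of 41, with a median of 0.08. Lactose synthesis and sugar transport had LALBA higher and the hexokinase HK1 (-0.17) lower of 13, with a median of 0.20. Extracellular matrix genes had 4 higher, SULF1 (0.67), LOX (0.87), ELN (0.92) and COL14A1 (0.64), and 1 lower, COL9A1, of 47, with a median of 0.05. With the integrity covariate SULF1 was at 0.32, ELN at 0.46 and the median at -0.09. Ribosomal protein and translation factor genes (24) and immediate early and stress genes (26) had 0 at that p, with medians of 0.05 and 0.04. With total counts in place of TMM the median of all genes was -0.06, and the medians of the matrix (-0.01), ribosomal (-0.01) and immediate early (-0.03) lists turned below 0.

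Every marker with an identifier had counts in all 6 libraries, except 2 of the 4 skeletal muscle markers (13 listed). Of 19 epithelial markers 4 were above 0, the median was -0.18, and 1, FOXA1 (-0.61), was lower at a nominal p of up to 0.05. Their summed level was 3780 to 4224 CPM at 14 d and 3494 to 4073 CPM at 10 d, overlapping. Myoepithelial (6), fibroblast (12), endothelial (17) and skeletal muscle (2) markers had 0 at that p, with medians of 0.01, 0.06, 0.08 and 0.05, of which the myoepithelial (-0.05) and skeletal muscle (-0.02) medians turned below 0 with total counts. By exon length, the quartile of shortest genes had a median log2 fold change of 0.04 and that of the longest -0.02, and the RNA integrity number was higher at 10 d in 3 of 3 sows. Values from the fit with this number as a covariate are given beside some results and, for others, in the closing section. In that fit the median of antibody-secreting cell genes was 0.52, and the log2 fold changes of ENSSSCG00000009263 and BTN1A1 were 2.56 and 1.44.

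**Figure D5:**
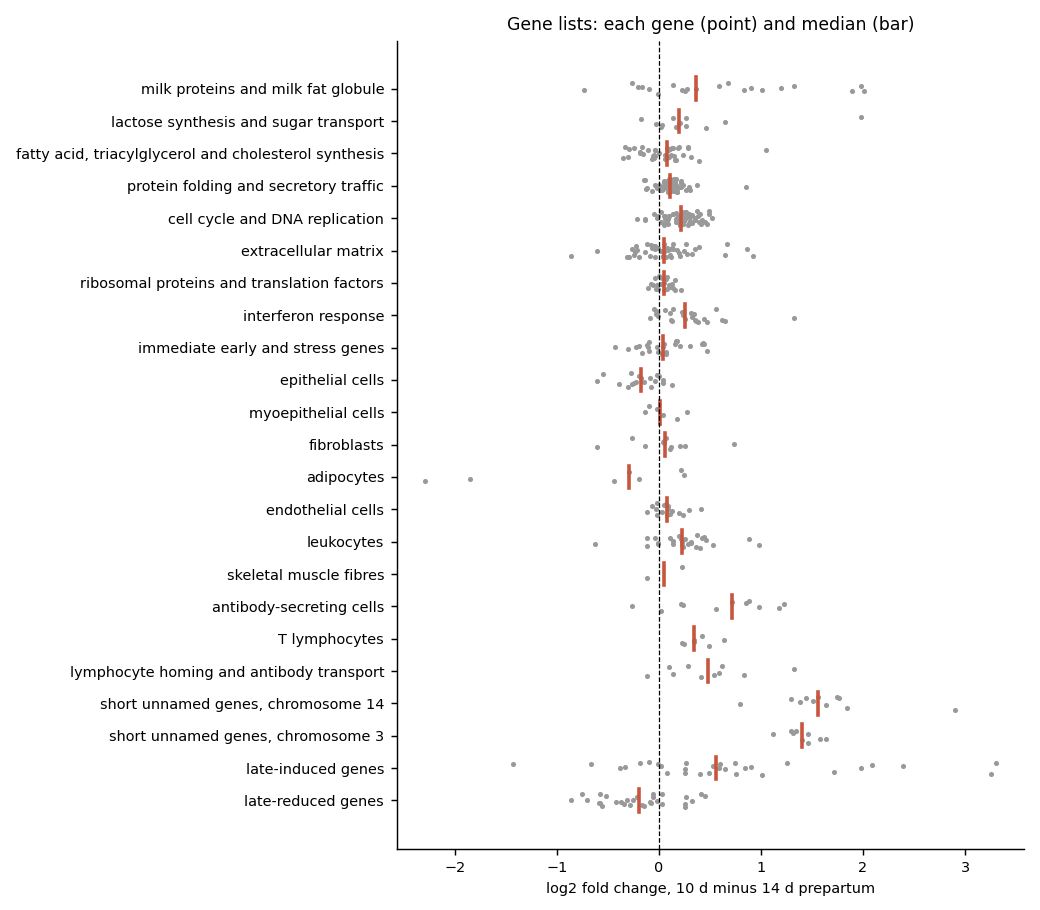
Log2 fold change (10 d minus 14 d prepartum, horizontal axis) of each tested gene of 23 lists (points) with the median of the list (red bar) and the median of all genes tested (dashed line). The unnamed genes of chromosomes 14 and 3 lie wholly above 0, and the adipocyte list reaches the lowest value, -2.29 for PLIN4.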

How the data were processed

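Messenger RNA of mammary biopsies was sequenced as single reads from stranded libraries. The authors trimmed adaptors with Trimmomatic 0.33, aligned reads with STAR 2.5.1b and counted them with featureCounts of Subread 1.5.0. The deposited values are raw counts per gene on exons (Sscrofa10.2, Ensembl release 86 and reverse-stranded counting per the file headers, although the Methods name RefSeq), with no normalization. Names came from an Ensembl table and the study's gene list, for 12081 of 25322 genes. The sow of each library is not in the sample labels. It was taken from the study's sequencing summary, where the total count matched exactly for 15 of 15 libraries.

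Genes with at least 1 CPM in at least 3 libraries were tested with edgeR 4.0.16 (TMM factors, quasi-likelihood F test, time and sow in the model, all 15 libraries) in R 4.3.3, with Benjamini-Hochberg adjustment over all genes tested. The study used limma-voom with animal as a random effect, which was run as an alternative (limma 3.58.1), as was DESeq2 1.42.0. The scripts were tested on simulated data. CPM values carry TMM factors. SE is the absolute log2 fold change divided by the square root of F. Libraries of one sow deviated together from the time means, with a correlation of 0.381 to 0.473 for the 3 pairs compared and at least 0.103 for all 30 same-sow pairs, so sow was kept as a block. Repeat biopsies of 3 animals are the replicates.

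Named genes were, among those with an unadjusted p of 0.05 or less, 1 direction in all 3 sows and a mean of at least 2 CPM, the 12 largest changes each way with a name, 2 unnamed genes known for their later increase and the 2 largest unnamed decreases, with up to 4 members of smallest p and the most abundant member of each list considered. Of the late lists and milk lists, only some members are named. The members and lists were chosen with earlier results of these data known. No sequence is shown.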

Additional observations from a re-analysis of the deposited data

How the results depend on the processing

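The 54 genes followed by name kept their direction in all 1017 values under 19 alternatives, and 14 values passed the adjusted threshold where the reported one did not, all but 1 of them with DESeq2 or in the fit of the 6 libraries alone. Genes called were 0 as reported, 17 with the 6 libraries alone and 25 with DESeq2, and 0 to 3 when a library or a sow was left out, the 3 arising without sow 3 at 14 d. All other alternatives for this count gave 0. Genes at a nominal p of up to 0.05 were 523 as reported, 296 without sow as a block, 253 with total counts in place of TMM (127 higher), 1004 with the 6 libraries alone, 282 with the RNA integrity number as covariate (141 higher), and 324 without sow 2 to 669 without sow 1. The pairing by sow therefore changed this count but not the number called. Total counts in place of TMM gave medians of 0.0058 for lipid synthesis, 0.017 for endothelial and 0.16 for leukocyte genes. With the integrity covariate the medians were 0.24 for secretory traffic, 0.25 for leukocyte, 0.89 for late-induced and 0.62 for milk genes, and they were smaller or turned for interferon response (0.11), cell cycle (0.14), adipocyte (-0.10), extracellular matrix (-0.09), fibroblast (-0.08), skeletal muscle (-0.32) and lymphocyte homing genes (0.22). Of the named genes, PLIN4 (-0.88), PLIN1 (-0.92), PIMREG (-0.39), SULF1 (0.32), ELN (0.46) and FANCI (0.17) were smaller and SLC6A14 (2.03) and LPO (1.74) larger by over 1.5 times in that fit. The leukocyte median was 0.239 without the sow block and 0.238 with at least 5 CPM, and the 100 largest late-induced genes had a median of 0.35. When a library or a sow was left out, medians lay at -0.045 to 0.099 for lipid synthesis, 0.027 to 0.21 for secretory traffic, 0.14 to 0.44 for interferon response, 0.019 to 0.10 for endothelial, 0.22 to 0.29 for leukocyte, 0.35 to 0.87 for late-induced and -0.43 to -0.0065 for late-reduced genes, and at 0.24 to 0.63 for milk, 0.091 to 0.33 for lactose, 0.0092 to 0.42 for cell cycle, -0.46 to -0.097 for adipocyte, -0.11 to 0.16 for extracellular matrix, -0.13 to 0.24 for fibroblast, -0.23 to -0.086 for epithelial, 1.01 to 1.99 for the chromosome 14 and 0.84 to 2.21 for the chromosome 3 genes. The ribosomal (-0.014 to 0.13), immediate early (-0.047 to 0.075), myoepithelial (-0.084 to 0.097) and skeletal muscle (-0.17 to 0.34) medians also crossed 0. The lipid median was below 0 without sow 1 at 14 d (-0.036) and without sow 2 at 10 d (-0.045). The cause of these shifts was not tested. Leaving out whole sows was added after seeing the data. With 3 sows, genes of few counts such as PLIN1, PLIN4 and BTN1A1 carry wide intervals.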
